A study of Mus musculus with 10 samples.

Results

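The liver X receptor (LXR) and lipid handling genes described here are 10 genes of mouse nonclassical monocytes: the receptor genes Nr1h3, Nr1h2 and Rxra, the efflux genes Abca1, Abcg1 and Apoe, the lipoprotein genes Pltp and Lpl, and the regulators Mylip and Srebf1. They were chosen by name, not by a measured value in the rule, but with earlier results of these data known. They were found in the count table through their GENCODE M21 symbols. All 10 were among the 52636 genes of the table, and all 10 passed the filter on low counts that kept 13469 genes. Nonclassical monocytes are the patrolling subset of monocytes. They were sorted from bone marrow of LAIR1+/+ animals (WT, 5 libraries) and of LAIR1-/- animals (LAIR1KO, 5 libraries). LAIR1 is an inhibitory leukocyte receptor for collagen domains, and the series asks what it does in monocytes and lung macrophages at rest. All animals were untreated and on standard chow. Age, sex and the way the allele was made are not in the labels, and they do not state that the 5 libraries of a group are 5 animals. The p-values therefore set the difference between the groups only against the variation between these libraries, which may be technical.

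LXR-alpha, encoded by Nr1h3, and LXR-beta, encoded by Nr1h2, are nuclear receptors that bind DNA as dimers with the retinoid X receptors, of which Rxra encodes RXR-alpha. Oxysterols, which accumulate when a cell holds excess cholesterol, activate them. The dimers then raise transcription of genes that move cholesterol out of the cell and onto lipoproteins, and of the fatty acid regulator Srebf1. In macrophages this programme is best known for cholesterol efflux and for the handling of lipid from engulfed cells.

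The total count per library was 12106209 to 15356924. Lair1 itself had 4230 to 5579 counts in the WT libraries and 0 to 10 in the LAIR1KO libraries, so every library matched its label. All 12 markers of nonclassical monocytes were detected well enough to test, and their summed level was 9265 to 12672 CPM (a gene's counts scaled to the size of its library) in WT and 7641 to 10041 CPM in LAIR1KO. Markers of other cells differed between the groups. Summed over 14 resident macrophage genes, the level was 1779 to 2292 CPM in WT and 967 to 1247 CPM in LAIR1KO, and 8 of the 12 tested members fell. Summed over 8 myeloid progenitor genes, it was 524 to 1393 CPM in WT and 3184 to 6712 CPM in LAIR1KO, and 8 of 8 rose. Of the tested markers of dendritic cells 2 of 5 fell, of erythroid cells 4 of 6, and of neutrophils 0 of 8. The shares over all tested genes were 1.68% that fell and 5.11% that rose. The erythroid sum was 77.5 to 1260 CPM in WT and 34.4 to 112 CPM in LAIR1KO. Its highest library was WT replicate 2, with WT replicate 3 next at 315 CPM. For 0 of the 6 erythroid genes did every LAIR1KO library lie below every WT library. No gene of the macrophage and progenitor lists was at 0 in all libraries. LAIR1KO replicates 4 and 5 had the highest progenitor sums, 5374 and 6712 CPM, and the lowest macrophage sums, 967 and 980 CPM. The part of these cell markers in the results below was not tested. In bulk samples, fewer cells of a type and less RNA per cell cannot be told apart.

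The LXR and lipid handling genes tended to lower levels in LAIR1KO, and 3 of 10 fell: Pltp to 61.0% of the WT level, Nr1h3 to 58.6% and Apoe to 67.2%. None rose. Among all tested genes 6.79% passed, 1.68% fell and 5.11% rose at the same threshold, an adjusted p under 0.05 in edgeR's quasi-likelihood test with Benjamini-Hochberg adjustment over the 13469 genes. At an unadjusted p under 0.05, 7 of the 10 genes were lower and 0 higher, against 8.92% and 12.9% of all tested genes. Because the 10 genes were chosen with earlier results of these data known, these shares describe the list and do not test it. The fitted log2 fold change (LAIR1KO minus WT) was below 0 for all 10 genes, where 50.3% of all tested genes were below 0, and its median was -0.43 against 0.00 for all genes. The markers of nonclassical monocytes were also below 0, 12 of 12 with a median of -0.27, and none of them passed. The count of genes below 0 depended on the scaling for the genes closest to 0: with libraries scaled by their totals, which moved the median of all genes to 0.13, 8 of 10 were below 0 (Nr1h2 and Rxra were not), and 9.86% of all genes past the threshold were lower in place of 24.7%. Every LAIR1KO library lay below every WT library for Nr1h3, Mylip and Pltp, 3 of 10 genes, as it did for 2.06% of all tested genes. For 0 of the 10 genes did every LAIR1KO library lie above every WT library, against 5.61% of all tested genes. Pltp alone among the 10 genes passed in all 23 alternative analyses. Nr1h3 passed in 21 and Apoe in 9.

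**Figure D1:**
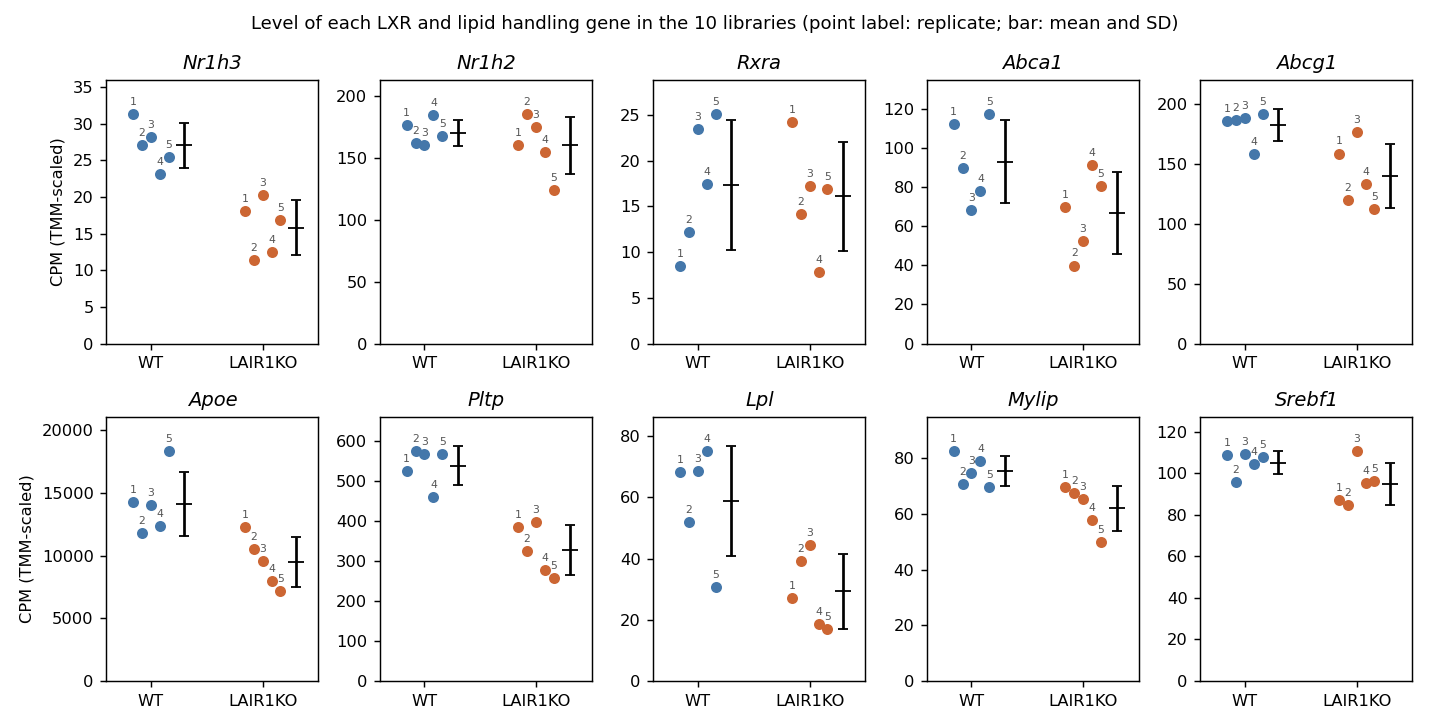
Level of each of the 10 genes in CPM on TMM-scaled library sizes (y axis, from 0) in the 5 WT and 5 LAIR1KO libraries. Points are libraries labelled by replicate number, and the bars give the mean and SD. The groups do not overlap for Nr1h3, Pltp and Mylip, and the Rxra values of the groups cover almost the same range.

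Among the receptors, the LXR-alpha gene was lower in LAIR1KO and the LXR-beta gene was not detectably different. Nr1h3 (ENSMUSG00000002108, GRCm38 chromosome 2, 91184061 to 91202834, minus strand) stood at 31.3, 27.1, 28.1, 23.1 and 25.5 CPM in WT replicates 1 to 5. In LAIR1KO replicates 1 to 5 it stood at 18.1, 11.4, 20.2, 12.5 and 16.8 CPM. The groups did not overlap, and LAIR1KO replicate 2 was lowest. The means were 27.0 ± 3.04 and 15.8 ± 3.74 CPM (SD, n = 5 each), with a log2 fold change of -0.77 ± 0.17 (SE; edgeR adjusted p = 0.0163). The call held without any single library (adjusted p up to 0.0463), but not without LAIR1KO replicates 4 and 5 together (-0.71, adjusted p = 0.0815) or WT replicates 1 and 4 together (-0.77, adjusted p = 0.0734).

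Nr1h2 (ENSMUSG00000060601, chromosome 7, 44549616 to 44553951, minus strand) was the more abundant LXR gene. Its level was 160 to 185 CPM in WT (mean 170 ± 10.3) and 124 to 185 CPM in LAIR1KO (mean 160 ± 23.3; SD, n = 5 each). The ranges overlapped over their upper parts, and LAIR1KO replicate 5 was the lowest library. The difference did not pass (log2 fold change -0.09 ± 0.11, SE; edgeR adjusted p = 0.685). Per kilobase of exon, which allows genes to be set side by side, Nr1h3 reached 16.7% to 23.7% of Nr1h2 in WT (mean 21.3%) and 8.18% to 18.0% in LAIR1KO (mean 13.5%). LAIR1KO replicate 5, at 18.0%, lay above WT replicate 4, at 16.7%, so this share overlapped between the groups where Nr1h3 itself did not.

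Rxra (ENSMUSG00000015846, chromosome 2, 27676440 to 27762957, plus strand) was the most variable gene in WT and the least abundant per kilobase there. It ran from 8.53 to 25.1 CPM in WT and from 7.87 to 24.3 CPM in LAIR1KO, with coefficients of variation of 41.0% and 36.9%. The means, 17.4 ± 7.11 and 16.1 ± 5.93 CPM (SD, n = 5 each), differed by much less than that spread (log2 fold change -0.11 ± 0.32, SE; edgeR adjusted p = 0.887). Its direction changed with the library left out. The alternative partner Rxrb, which encodes RXR-beta, had 114 CPM in WT and 112 CPM in LAIR1KO (adjusted p = 0.937), and Rxrg had 0 counts in all libraries.

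Cholesterol leaves macrophages mainly through the transporters ABCA1, which loads lipid-poor apolipoprotein A-I, and ABCG1, which loads formed high-density lipoprotein. Both genes had lower means in LAIR1KO, and neither passed. Abca1 (ENSMUSG00000015243, chromosome 4, 53030787 to 53159895, minus strand) stood at 112, 89.8, 68.1, 77.9 and 117 CPM in WT replicates 1 to 5. In LAIR1KO replicates 1 to 5 it stood at 69.8, 39.9, 52.6, 91.5 and 80.6 CPM. LAIR1KO replicates 4 and 5, the lowest libraries for Apoe, Pltp and Lpl, were the highest LAIR1KO libraries for Abca1. Its log2 fold change of -0.48 ± 0.22 (SE) did not pass (edgeR adjusted p = 0.218) and reached -0.78 without those libraries (adjusted p = 0.0802).

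Abcg1 (ENSMUSG00000024030, chromosome 17, 31057675 to 31117988, plus strand) was tighter in WT. It stood at 185, 186, 188, 158 and 191 CPM in WT replicates 1 to 5, and at 158, 119, 176, 133 and 112 CPM in LAIR1KO replicates 1 to 5. WT replicate 4 lay apart from the other WT libraries and just below LAIR1KO replicate 1. The means were 182 ± 13.4 and 139.8 ± 26.8 CPM (SD, n = 5 each), with a log2 fold change of -0.38 ± 0.12 (SE; edgeR adjusted p = 0.0918). Abcg1 passed without LAIR1KO replicate 3 (-0.48, adjusted p = 0.0221), with DESeq2 (adjusted p = 0.0353), with limma voom and library quality weights (0.0464) and with 1 surrogate variable (0.0456). Per kilobase of exon, Abca1 was at 36.0% ± 7.33 of Abcg1 in WT and at 34.9% ± 13.8 in LAIR1KO (SD, n = 5 each), so that this share differed by much less than its spread.

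The known binding letters of the LXR dimer were sought only close to RefSeq start sites, not in the rest of these genes. RefSeq promoter windows on GRCm38.p6 (250 bases before to 50 after a start) were at hand for 8 of the 10 genes, in 14 windows. There was none for Abcg1 and Lpl. The LXR element core, GGTTA and GGTCA with any 5 bases between them, on either strand, was found in 2 of the 14 windows, 1 of Abca1 and 1 of Srebf1, and in 0.0487% of the 32851 windows of all genes. This core was chosen after the windows had been read, so the count carries no test. The first stretch is chr4:53159941-53159969 and the second chr11:60210632-60210660, both on the minus strand, 5′ to 3′, with the core in capitals as read on that strand (its reverse complement).
Abca1: cagcgttTGACCGGTAGTAACCccggcgc
Srebf1: acgacagTGACCGCCAGTAACCccagcgc
The Abca1 core began 67 bases before the start site of its only RefSeq window. The Srebf1 core began 182 bases before 1 of 3 RefSeq starts, the one that lies 12.1 kb inside the span of the gene. The cores shared 13 of 15 positions. Neither gene that holds this core passed in the comparison of LAIR1KO with WT.

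Apoe was among the most abundant transcripts of these cells, and it was lower in LAIR1KO with a call that most single libraries could end. Apolipoprotein E is a secreted carrier that takes up cholesterol from the cell and serves as a ligand for lipoprotein receptors. The gene (ENSMUSG00000002985, chromosome 7, 19696109 to 19699188, minus strand) held 0.784% to 1.77% of all counts and ranked 2 or 3 of all genes by count in every library. It stood at 14240, 11769, 14001, 12332 and 18310 CPM in WT replicates 1 to 5. In LAIR1KO replicates 1 to 5 it stood at 12271, 10509, 9544, 7941 and 7182 CPM. The groups overlapped through LAIR1KO replicate 1, which lay above WT replicate 2, and the lowest libraries were LAIR1KO replicates 4 and 5. The means were 14130 ± 2565 and 9489 ± 2031 CPM (SD, n = 5 each), with a log2 fold change of -0.57 ± 0.16 (SE; edgeR adjusted p = 0.0456). The call was kept in 2 of the 10 fits without a single library, those without WT replicate 2 and LAIR1KO replicate 1 (log2 fold change -0.69 to -0.46 and adjusted p 0.0226 to 0.115 over the 10). The log2 fold change was -0.39 (adjusted p = 0.163) without LAIR1KO replicates 4 and 5.

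Pltp changed most clearly of the 10 genes. Phospholipid transfer protein moves phospholipid between lipoprotein particles and remodels high-density lipoprotein. The gene (ENSMUSG00000017754, chromosome 2, 164839518 to 164857711, minus strand) stood at 524, 574, 566, 460.1 and 567 CPM in WT replicates 1 to 5. In LAIR1KO replicates 1 to 5 it stood at 385, 325, 398, 276 and 257 CPM. The lowest WT library lay above the highest LAIR1KO library, and LAIR1KO replicates 4 and 5 were lowest. The means were 538 ± 48.0 and 328 ± 62.8 CPM (SD, n = 5 each), with a log2 fold change of -0.71 ± 0.13 (SE; edgeR adjusted p = 0.00536). Without LAIR1KO replicates 4 and 5 it was -0.55 (adjusted p = 0.0212), and without WT replicates 1 and 4 it was -0.80 (adjusted p = 0.0228). Of the exons of Pltp, 19.3% overlap those of Ctsa, a lysosomal carboxypeptidase gene on the other strand with 23244 counts per library on average against 5863 for Pltp. Because the strand setting of the counting is not given, reads in that stretch cannot be assigned with certainty. Ctsa went from 1816 to 1573 CPM and did not pass (log2 fold change -0.21 ± 0.13, SE; edgeR adjusted p = 0.393).

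Stretches before a RefSeq start of Pltp and of Nr1h3, whose LAIR1KO and WT libraries did not overlap, are shown for comparison with the stretches of Abca1 and Srebf1. They are chr2:164857712-164857811 and chr2:91195152-91195251 on GRCm38.p6, both on the minus strand, 5′ to 3′, and hold no annotated GENCODE M21 exon. The Nr1h3 start is internal, 7.72 kb inside the span of the gene, and both RefSeq windows of Nr1h3 lie there. Capitals mark a GC box (GGGCGG, on either strand), the binding letters of the SP1 family.
Pltp: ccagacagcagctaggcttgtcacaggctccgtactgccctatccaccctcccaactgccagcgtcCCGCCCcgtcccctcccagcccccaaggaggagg
Nr1h3: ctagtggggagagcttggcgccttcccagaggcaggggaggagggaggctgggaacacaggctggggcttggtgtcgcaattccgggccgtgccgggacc
Neither gene's windows held the core found in Abca1 and Srebf1. A GC box was found in 6 of the 14 windows (42.9%), which belong to 5 genes, and in 35.7% of all windows. An E-box (CACGTG) was found in 1 of the 14 (7.14%), that of Abca1, and in 7.15% of all windows. A direct repeat of AGGTCA with any 4 bases between the copies and up to 2 mismatches was found in 0 of the 14 windows and in 3.02% of all windows. The core in Abca1 and Srebf1 is itself a looser form of that repeat, with more mismatches than the 2 allowed. The PU.1 site GAGGAAGT was found in 0 of the 14 windows and in 3.20% of all windows. Both were sought on either strand. No match says only that these letters are not in these windows.

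Lpl had the largest fold change of the 10 genes and the widest spread in LAIR1KO, and it did not pass. Lipoprotein lipase releases fatty acids from triglyceride-rich lipoproteins. The gene (ENSMUSG00000015568, chromosome 8, 68880491 to 68907448, plus strand) stood at 68.2, 51.9, 68.5, 75.0 and 30.6 CPM in WT replicates 1 to 5. In LAIR1KO replicates 1 to 5 it stood at 27.2, 39.3, 44.6, 18.5 and 16.8 CPM. WT replicate 5 was the only WT library inside the LAIR1KO range. The means were 58.8 ± 17.9 and 29.3 ± 12.4 CPM (SD, n = 5 each), with a log2 fold change of -1.01 ± 0.29 (SE; edgeR adjusted p = 0.0586). Lpl passed in 6 of the 23 alternatives: without WT replicate 5 (-1.17, adjusted p = 0.0235), without LAIR1KO replicate 3 (-1.21, adjusted p = 0.0235), with DESeq2 (adjusted p = 0.00756), with 1 surrogate variable (0.00648), with no filter (0.0189) and with the replicate block (0.0378). Without LAIR1KO replicates 4 and 5 the value was -0.67 (adjusted p = 0.219).

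The 3 tested genes that act on lipoprotein lipase did not have lower levels in LAIR1KO. Angptl4, a secreted inhibitor of the enzyme, rose from 2.44 ± 1.12 CPM in WT to 9.26 ± 3.32 CPM in LAIR1KO (SD, n = 5 each; log2 fold change 1.92 ± 0.34, SE; edgeR adjusted p = 0.00494). Its WT libraries held 1.55 to 4.14 CPM and its LAIR1KO libraries 4.91 to 14.1 CPM, without overlap. It passed in all 23 alternatives. Of the 5 listed genes 3 were tested, 1 rose and 0 fell, against 5.11% and 1.68% of all tested genes. Lmf1 and Sel1l, which help the lipase fold and leave the endoplasmic reticulum, had log2 fold changes of 0.01 each (adjusted p = 0.969 and 0.981).

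The regulators Mylip and Srebf1 differed little. Mylip encodes a ubiquitin ligase, also named IDOL, that directs the low-density lipoprotein receptor to degradation. The gene (ENSMUSG00000038175, chromosome 13, 45389742 to 45412022, plus strand) stood at 69.8 to 82.5 CPM in WT and at 49.9 to 69.7 CPM in LAIR1KO, so that the groups touched without overlapping. Its means were 75.4 ± 5.36 and 62.1 ± 8.12 CPM (SD, n = 5 each), and the difference did not pass (log2 fold change -0.28 ± 0.11, SE; edgeR adjusted p = 0.152). Srebf1 (ENSMUSG00000020538, chromosome 11, 60199089 to 60222581, minus strand), which encodes the fatty acid synthesis regulator SREBP1, was the steadiest gene, with coefficients of variation of 5.36% in WT and 10.7% in LAIR1KO. It stood at 95.6 to 109 CPM in WT and at 84.7 to 110 CPM in LAIR1KO (log2 fold change -0.15 ± 0.09, SE; edgeR adjusted p = 0.394).

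**Figure D2:**
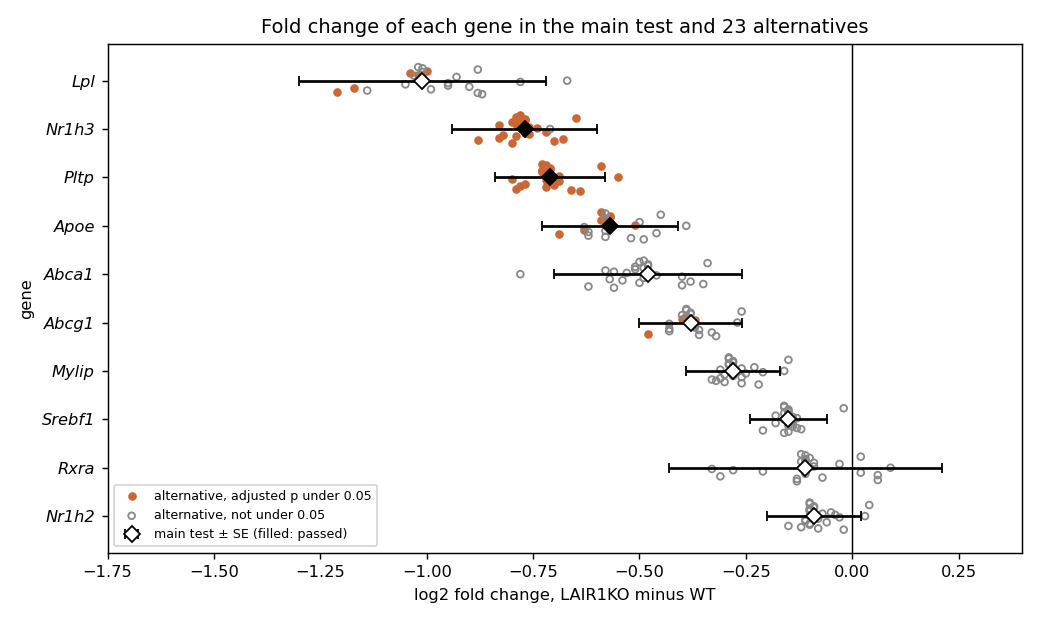
Log2 fold change of each gene, LAIR1KO minus WT (x axis), with genes on the y axis ordered by size. Diamonds are the edgeR test of all libraries with its SE, filled where the adjusted p was under 0.05. Circles are the 23 alternatives, filled where they passed. Pltp is filled throughout, Apoe is mixed around -0.57, and the circles of Rxra lie on both sides of 0.

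Set in order of CPM per kilobase of exon, the WT levels ran from Apoe (6609 ± 1200) through Pltp (210.1 ± 18.7), Nr1h2 (50.7 ± 3.07), Abcg1 (24.9 ± 1.83), Mylip (23.3 ± 1.66), Srebf1 (18.7 ± 1.0), Nr1h3 (10.7 ± 1.21), Abca1 (8.99 ± 2.06) and Lpl (5.62 ± 1.71) to Rxra (3.18 ± 1.30; SD, n = 5 for each). The WT ranges of Abcg1 and Mylip overlapped, as did those of Nr1h3 and Abca1, of Abca1 and Lpl and of Lpl and Rxra. The other neighbours in this order did not overlap. In LAIR1KO the order was the same except that Abcg1 and Mylip, Nr1h3 and Abca1, and Lpl and Rxra each changed places.

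The genes did not vary together in every library. LAIR1KO replicate 5 was the lowest of all 10 libraries for 6 of the 10 genes and LAIR1KO replicate 2 for 3, Nr1h3, Abca1 and Srebf1. WT replicate 5 was the highest library for 4 genes. To compare patterns, each gene's mean over the libraries was taken from its log2 CPM, and the root mean square difference between genes was computed over the 10 libraries. Among the 10 genes this difference was smallest for Nr1h2 and Mylip (0.123), followed by Abcg1 with Mylip (0.188) and Abcg1 with Pltp (0.192). It was largest for Rxra with Lpl (0.904) and Abca1 with Lpl (0.884). Abca1 and Lpl were low in different LAIR1KO libraries, Abca1 in replicates 2 and 3 and Lpl in replicates 4 and 5.

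**Figure D3:**
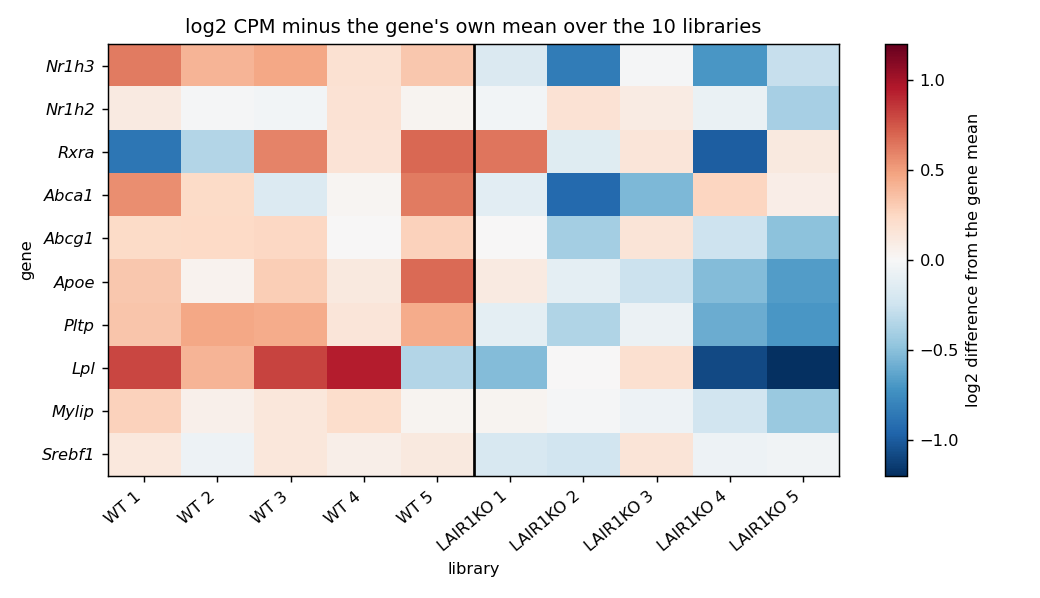
Log2 CPM of each gene (rows) in each library (columns) after the gene's own mean over the 10 libraries was taken away, as colour from blue (lower) to red (higher). The vertical line parts WT from LAIR1KO. Lpl is lowest in LAIR1KO replicates 4 and 5, and Abca1 in LAIR1KO replicate 2.

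The 3 genes closest in pattern to each gene that fell were found by the same measure over the 10 libraries. They were sought among tested genes with a mean of at least 5 CPM, with predicted names (such as Gm and Rik) left out. The measure includes the difference between the groups, so genes close by it tend to have similar fold changes. The fold changes and p-values of these neighbours are therefore no separate support. For Pltp they were Acp5, the tartrate-resistant acid phosphatase (0.115), Blvrb, a biliverdin reductase (0.128), and Arl5c (0.130). Their log2 fold changes were -0.73, -0.76 and -0.52 (edgeR adjusted p = 0.00167, 0.00374 and 0.0398). For Nr1h3 they were the lysosomal protease gene Lgmn (0.164), the ubiquitin-conjugating enzyme gene Ube2l6 (0.181) and Lars2, a mitochondrial leucyl-tRNA synthetase (0.207). For Apoe they were Litaf (0.135), Tab2 (0.146) and Sertad1 (0.156), and none of these 3 passed (edgeR adjusted p = 0.121, 0.141 and 0.0879).

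Of 15 further genes known as LXR targets 11 were tested, 1 fell, 0 rose and 10 did not pass. Over all tested genes, 1.68% fell and 5.11% rose. Of the 11, 8 had a log2 fold change below 0. The median of the 11 was -0.27, against 0.00 for all genes and -0.27 for the 12 markers of nonclassical monocytes. The one that fell was Mertk, a receptor kinase for apoptotic cells and also a known marker of resident macrophages, from 5.32 ± 0.768 to 0.981 ± 0.277 CPM (SD, n = 5 each; log2 fold change -2.43 ± 0.28, SE; edgeR adjusted p = 4.61e-04). Apoc1, which lies in the same gene cluster as Apoe, had 7.87 and 4.29 CPM (adjusted p = 0.0847). Fasn, the fatty acid synthase, had 24.8 CPM in WT and 51.9 CPM in LAIR1KO (log2 fold change 1.07, adjusted p = 0.137), with the opposite sign to its regulator Srebf1. Its highest libraries were LAIR1KO replicates 4 and 5, at 82.9 and 101 CPM, and the other 3 LAIR1KO libraries lay within the WT range of 20.3 to 35.6 CPM.

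Other parts of cholesterol metabolism gave few calls. Of 27 listed genes of cholesterol synthesis and uptake under SREBP2, 25 were tested and 0 passed in either direction, against 6.79% of all tested genes. Their median log2 fold change was 0.06. The smallest p-values were those of Acat2 (0.37, edgeR adjusted p = 0.154) and Sqle (0.66, adjusted p = 0.161). Of 16 genes of lipid uptake, storage and lysosomal release 15 were tested, where 1.68% of all tested genes fell and 5.11% rose. Of the 15, 0 rose and 1 fell (median -0.25). That gene was Npc2, which carries cholesterol out of the lysosome, from 296 ± 40.7 to 219.7 ± 26.8 CPM (SD, n = 5 each; log2 fold change -0.43 ± 0.12, SE; edgeR adjusted p = 0.0406), a call kept in 3 of the 10 fits without a single library. Without the other 7 libraries (WT replicates 1, 2, 3 and 4 and LAIR1KO replicates 2, 4 and 5, each in turn) the adjusted p was 0.0556 to 0.102.

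Of 13 partners and cofactors of nuclear receptors 12 were tested (median -0.04). Of these 1 rose and 0 fell, against 5.11% and 1.68% of all tested genes. Med1, a Mediator subunit that binds nuclear receptors, went from 71.3 ± 5.47 to 91.9 ± 8.34 CPM (SD, n = 5 each; log2 fold change 0.37 ± 0.10, SE; edgeR adjusted p = 0.0379) and kept its call in 3 of the 10 fits without a single library (adjusted p 0.0331 to 0.0934). The corepressor gene Ncor1 did not pass (adjusted p = 0.558). Against 6.79% of all tested genes, 0 passed of the 4 tested among 7 genes of oxysterol synthesis and sensing (median -0.17). Among them Cyp27a1, which makes an oxysterol ligand of LXR, had 252 CPM in WT and 239 CPM in LAIR1KO (adjusted p = 0.741). Cyp7b1 (log2 fold change -0.71, adjusted p = 0.397) and Gpr183, an oxysterol receptor (-0.28, adjusted p = 0.693), had the smallest p-values there.

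**Figure D4:**
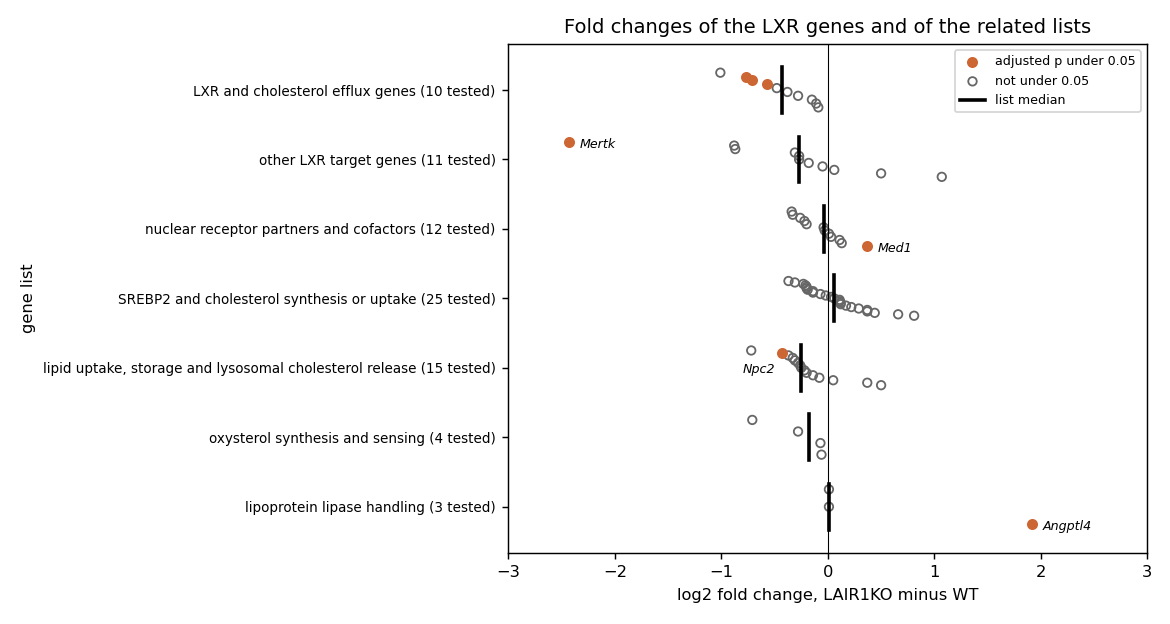
Log2 fold change, LAIR1KO minus WT (x axis), of each tested gene in the 10 LXR and lipid handling genes and in 6 related lists (y axis). Filled circles passed at an adjusted p under 0.05, open circles did not, and the black bars are list medians. The medians lie at -0.43 for the 10 genes and at 0.06 for cholesterol synthesis, and Mertk and Angptl4 lie farthest from 0.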

How the data were processed

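The authors deposited 1 table of raw read counts per Ensembl gene for the 10 libraries. GSNAP and the build GRCm38.p5 are named for the alignment, per the submitters' processing notes. Not given in the sources used here are the GSNAP version, the counting tool, its annotation, its strand setting and any read filter, so reads of overlapping antisense genes could not be told apart. GENCODE M21 (GRCm38) gave names, coordinates and exon lengths for 52489 of 52636 identifiers. Counts were fitted in R 4.3.3 with edgeR 4.0.16 (filterByExpr by group, minimum count 10 and minimum total 15; TMM scaling; quasi-likelihood test, no covariate, two-sided), and p-values were adjusted over 13469 genes. CPM values use TMM-scaled library sizes. The SE is the fold change over the square root of F. No library repeated another: a chi-square of replicate counts gave 15.8 to 80.8 per degree of freedom.

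The 10 genes, the related lists and the markers were chosen with earlier results of these data known. The text names all 10 genes, from each related list up to 4 genes past the threshold or the 2 with the smallest p, for each gene that fell its 3 nearest genes in pattern, and Lair1. Rxrb, Rxrg, Ncor1, Apoc1, Fasn, Cyp27a1, Lmf1, Sel1l, Ctsa, Timd4, Vsig4, Cd163 and Adgre1 were named after their values were seen. On counts simulated for LAIR1KO against WT (13215 genes) the share recovered was 30.5% for 1.5-fold changes, 74.0% for 2-fold and 95.6% for 4-fold changes, and 4.86% of its calls were unchanged genes. The alternatives were RLE, upper-quartile and total scaling, no filter, a filter of 1 CPM in 5 libraries, a block for the replicate number, leaving out each library in turn, LAIR1KO replicates 4 and 5 or WT replicates 1 and 4 left out together, DESeq2 1.42.0, limma 3.58.1 voom without and with quality weights, 1 surrogate variable from sva 3.50.0, and removal of GC and length trends.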

Additional observations from a re-analysis of the deposited data

Results flagged for a closer look

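One value of the genes described lay apart from its group. Abcg1 in WT replicate 4 stood at 158 CPM, with the nearest WT library at 185 CPM, and this gap made up 0.818 of the whole WT range, above the limit of 0.71 for 5 samples. Chance gives about 1 such value in 20 groups, and 36 gene and group sets were checked. Without WT replicate 4 the log2 fold change of Abcg1 was -0.43 (edgeR adjusted p = 0.0902) against -0.38 (0.0918) with it.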

How the results depend on the processing

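Of the 10 genes, 3 fell in the edgeR test of all libraries. With DESeq2 and with 1 surrogate variable 5 fell, and only 1, Pltp, with WT replicates 1 and 4 or LAIR1KO replicates 4 and 5 left out, and with 1 library left out 2 to 4. None rose in any alternative. Signs turned for Nr1h2 with library totals (0.04) and without LAIR1KO replicates 4 and 5 (0.03), and for Rxra in these fits (0.02 and 0.09) and without WT replicate 3 (0.02), WT replicate 5 (0.06) or LAIR1KO replicate 4 (0.06), where leaving out 1 library gave Rxra values of -0.31 to 0.06. None of these values passed. In the related lists 2 genes fell and 2 rose. Only 1 fell with upper-quartile scaling, library totals, no filter or without WT replicates 1 and 4, and 1 to 4 with 1 library left out. With DESeq2, with 1 surrogate variable or without LAIR1KO replicates 4 and 5, 3 fell. Only 1 rose with no filter, the replicate block, quality weights, or either pair of libraries left out, and 1 to 3 with 1 library left out. Over all genes 914 passed, against 1379 with library totals, 1516 with DESeq2, 1406 with 1 surrogate variable, 376 without LAIR1KO replicates 4 and 5, 338 without WT replicates 1 and 4, and 585, 535 and 594 without WT replicate 3, LAIR1KO replicate 4 and LAIR1KO replicate 5. The share of lower genes among these calls was 24.7%, and 9.86% with library totals, 39.2% with 1 surrogate variable and 37.2% without LAIR1KO replicates 4 and 5. The cause was not tested. The labels do not say whether the replicate numbers pair the libraries. Correlations of same-numbered deviations were -0.078 to 0.047 over 5 pairs, with 0 of the pairs over 0.1. These values show no shared deviation, but they cannot exclude a pairing. The replicate block gave 600 calls over all genes, with Apoe at -0.58 (adjusted p = 0.0960) and Lpl at -1.04 (0.0378). CPM on library totals moved no group mean of the 10 genes by more than its SD. Rxra, the gene of the 10 with the lowest level per kilobase in WT, had 101 to 380 counts per library. The part of depth in its spread was not tested.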
